A study of Mus musculus with 8 samples.

Results

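The axon guidance ligand and receptor families were examined for open chromatin in cultured mouse cortical neurons with and without the chromatin remodeller Brg1, at rest and after depolarisation. Members were taken by gene symbol from the protein-coding genes of the RefSeq annotation of GRCm38: the Eph receptors, ephrins, plexins, Robo receptors, Slits and netrins that carry a number, the semaphorins named by a digit and a letter, Unc5a to Unc5d, and Dcc. The rule gave 67 of 21887 genes, in 10 families, of which 35 were ligands and 32 receptors. The rule uses no measured value. Peaks at most 1 kb from the annotated start or end of a member are called gene-end peaks here, and a wider set took in all peaks within 50 kb of the gene body.

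Growing axons carry receptors that read cues on other cells and in the matrix and turn them into turning, stalling or branching of the growth cone. Ephrins, bound to the membrane, signal to Eph receptor tyrosine kinases on contact. Semaphorins signal through plexins, the secreted class often together with neuropilins, Slits repel axons through Robo receptors, and netrins attract through Dcc and repel when Unc5 receptors take part. In the developing cortex these families steer corticospinal, callosal and thalamocortical axons, and later many of them act at synapses. Brg1 (Smarca4) is an ATPase of the BAF complexes, which slide or evict nucleosomes.

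The assay was ATAC-seq: the transposase Tn5 inserts adapters where DNA is accessible. Primary neurons came from the cortex of embryos at E16.5, and each library was made from 50000 cells, with 2 libraries per condition. Brg1-cko neurons (BAF53bCre Brg1F/F, here cKO) delete the floxed Brg1 gene through Cre driven by the neuronal gene BAF53b, so non-neuronal cells in the culture would keep it. The 4 conditions were cKO with 50 mM KCl for 1 h (cKO KCl), cKO without KCl (cKO basal), wild type with KCl (WT KCl) and wild type without KCl (WT basal). KCl depolarises neurons. Cultures to be depolarised had been given TTX (1 µM) and APV (100 µM) on day 5 in vitro to silence spontaneous activity, and KCl was added on day 6. The labels do not say whether basal cultures also received TTX and APV. For each condition the authors deposited a single list of peaks called on nucleosome-free fragments, with both libraries in it. No value below therefore has a replicate error, and no difference between conditions was tested. Intervals are exact 95% Clopper-Pearson intervals and cover counting error only.

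Per the labels, each library had 60 M reads of 75 bp in pairs after 7 to 9 PCR cycles. The lists held 25690 peaks for cKO KCl, 20484 for cKO basal, 20229 for WT KCl and 34061 for WT basal. The floor of the local background, a measure of depth recovered from the peak values, was 8.36 fragments for cKO KCl, 9.47 for cKO basal, 8.23 for WT KCl and 9.30 for WT basal, so the longest list was not the one of highest floor. Median summit pileups were 30 to 33 fragments, and the absence of a peak means only that a site fell under the caller's threshold. Of 12 neuron markers, 8 carried a gene-end peak in cKO KCl, 7 in cKO basal, 7 in WT KCl and 9 in WT basal, and of 7 microglia markers 0 had one in any list. Of 8 cortical excitatory neuron markers, 2 had one in cKO KCl, 2 in cKO basal, 3 in WT KCl and 3 in WT basal, and of 8 inhibitory neuron markers 4, 2, 2 and 3 in the same order. Progenitor markers (7) gave 5, 4, 3 and 5, oligodendrocyte markers (7) 2, 3, 2 and 3, and endothelial and mural markers (7) 3, 2, 1 and 1. Astrocyte markers stood apart in the WT basal list. Of 7, 2 carried a gene-end peak in cKO KCl, 2 in cKO basal, 2 in WT KCl and 6 in WT basal, and the part of this in the member counts was not tested. By comparison, the base rate among all 21887 genes was 45.2% (cKO KCl), 38.8% (cKO basal), 39.8% (WT KCl) and 46.5% (WT basal). Neuron and progenitor markers exceeded this rate throughout. Cortical excitatory, microglia, and endothelial and mural markers were below it throughout. Inhibitory, astrocyte and oligodendrocyte markers were above it for some lists and below it for others. These sets are small, and the cell types present in the cultures were not tested.

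Start windows of the members that the results turn on are shown first, each with 250 bases before and 50 bases after an annotated transcript start, from the RefSeq promoter table of GRCm38.p6, 5′ to 3′ on the strand of the gene. Capitals mark CpG dinucleotides. The EphA receptor gene Epha7 (chr4:28812881-28813180, plus strand) had a peak over its window in all 4 lists, while Epha8 (chr4:136956767-136957066, minus strand), of the same family, had the most CpGs of any member and no peak in any list.
Epha7: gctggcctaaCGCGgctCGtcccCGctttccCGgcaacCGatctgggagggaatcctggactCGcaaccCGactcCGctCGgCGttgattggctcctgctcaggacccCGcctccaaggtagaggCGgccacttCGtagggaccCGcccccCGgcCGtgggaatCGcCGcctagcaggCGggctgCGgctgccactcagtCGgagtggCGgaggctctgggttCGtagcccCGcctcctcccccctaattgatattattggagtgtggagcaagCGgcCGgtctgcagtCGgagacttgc
Epha8: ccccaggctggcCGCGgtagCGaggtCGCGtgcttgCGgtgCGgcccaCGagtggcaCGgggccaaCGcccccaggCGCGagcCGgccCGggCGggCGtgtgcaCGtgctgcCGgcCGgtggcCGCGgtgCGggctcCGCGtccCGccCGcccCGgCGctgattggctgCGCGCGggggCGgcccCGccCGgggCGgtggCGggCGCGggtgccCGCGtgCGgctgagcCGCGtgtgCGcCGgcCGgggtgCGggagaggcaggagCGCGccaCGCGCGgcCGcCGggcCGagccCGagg
The window of Efna5 (chr17:62881268-62881567, minus strand), a membrane-anchored ephrin, overlapped a peak in every list but cKO basal, and that of the secreted semaphorin Sema3c (chr5:17574566-17574865, plus strand) in every list but WT KCl.
Efna5: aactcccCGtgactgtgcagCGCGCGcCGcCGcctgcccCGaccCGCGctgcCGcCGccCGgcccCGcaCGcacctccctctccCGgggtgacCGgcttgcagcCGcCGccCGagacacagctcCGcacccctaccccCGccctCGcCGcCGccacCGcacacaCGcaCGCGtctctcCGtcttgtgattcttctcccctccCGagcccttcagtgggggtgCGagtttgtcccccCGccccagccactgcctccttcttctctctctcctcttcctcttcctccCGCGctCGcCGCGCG
Sema3c: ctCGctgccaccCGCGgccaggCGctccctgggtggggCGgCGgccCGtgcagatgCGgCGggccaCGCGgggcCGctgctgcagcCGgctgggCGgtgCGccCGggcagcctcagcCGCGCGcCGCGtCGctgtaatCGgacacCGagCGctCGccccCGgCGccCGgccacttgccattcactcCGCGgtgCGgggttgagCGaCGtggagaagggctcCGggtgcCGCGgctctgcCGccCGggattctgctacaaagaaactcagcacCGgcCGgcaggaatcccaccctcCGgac
For the Slit receptor gene Robo2, the outermost start (chr16:75447244-75447543, minus strand) overlapped a peak in both cKO lists only, and an internal start (chr16:74411776-74412075, minus strand) in all 4 lists. The window of Plxna3 (chrX:74328816-74329115, plus strand), a semaphorin receptor, overlapped a peak in both WT lists only.
Robo2 outermost start: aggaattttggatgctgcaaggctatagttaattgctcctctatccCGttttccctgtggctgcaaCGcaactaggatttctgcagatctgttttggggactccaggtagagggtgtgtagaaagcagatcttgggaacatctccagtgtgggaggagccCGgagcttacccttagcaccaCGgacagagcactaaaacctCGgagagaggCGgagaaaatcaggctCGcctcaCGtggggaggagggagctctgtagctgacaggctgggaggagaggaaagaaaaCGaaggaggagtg
Robo2 internal start: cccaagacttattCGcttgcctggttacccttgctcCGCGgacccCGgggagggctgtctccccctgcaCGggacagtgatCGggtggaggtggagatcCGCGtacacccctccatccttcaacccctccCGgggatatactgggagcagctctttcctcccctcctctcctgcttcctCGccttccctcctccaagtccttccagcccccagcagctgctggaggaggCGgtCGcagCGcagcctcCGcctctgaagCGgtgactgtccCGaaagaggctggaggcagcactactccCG
Plxna3: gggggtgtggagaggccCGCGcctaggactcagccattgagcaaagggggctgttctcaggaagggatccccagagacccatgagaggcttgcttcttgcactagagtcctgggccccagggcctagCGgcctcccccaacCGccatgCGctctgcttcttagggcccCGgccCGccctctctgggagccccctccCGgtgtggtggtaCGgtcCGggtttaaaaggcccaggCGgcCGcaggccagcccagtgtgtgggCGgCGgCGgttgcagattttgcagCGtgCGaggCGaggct
The last pair shows windows poor in CpG. Sema4f (chr6:82939720-82940019, minus strand) had a peak in all 4 lists and Sema3a (chr5:13396534-13396833, plus strand) in none. The pair is not like for like. The Sema4f window lies at its outermost start, and that of Sema3a at a start inside the gene body (chr5:13124822-13603485).
Sema4f: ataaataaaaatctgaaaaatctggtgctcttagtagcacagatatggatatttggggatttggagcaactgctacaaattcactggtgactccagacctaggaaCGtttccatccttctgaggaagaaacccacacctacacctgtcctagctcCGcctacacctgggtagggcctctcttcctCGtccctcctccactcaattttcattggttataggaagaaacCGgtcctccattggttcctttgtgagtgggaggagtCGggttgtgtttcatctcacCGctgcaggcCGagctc
Sema3a: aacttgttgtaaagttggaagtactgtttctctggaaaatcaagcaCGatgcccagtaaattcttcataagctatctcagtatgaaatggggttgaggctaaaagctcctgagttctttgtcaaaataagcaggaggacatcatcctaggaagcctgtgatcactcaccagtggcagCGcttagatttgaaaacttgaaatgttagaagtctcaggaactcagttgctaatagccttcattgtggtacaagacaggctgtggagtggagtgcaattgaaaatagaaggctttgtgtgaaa

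Guidance genes were marked by gene-end peaks about as often as other genes, with the lowest share in cKO basal. A gene-end peak was present at 37 of 67 members (55.2%, interval 42.6 to 67.4%) in cKO KCl, 24 (35.8%, 24.5 to 48.5%) in cKO basal, 31 (46.3%, 34.0 to 58.9%) in WT KCl and 34 (50.7%, 38.2 to 63.2%) in WT basal. Over all 21887 genes the shares were 45.2% in cKO KCl, 38.8% in cKO basal, 39.8% in WT KCl and 46.5% in WT basal, each inside the members' interval. Receptors had more such peaks than ligands in 3 lists and as many in the other. Of 32 receptors, 20 carried a gene-end peak in cKO KCl, 13 in cKO basal, 17 in WT KCl and 17 in WT basal. Of 35 ligands, 17 had one in cKO KCl, 11 in cKO basal, 14 in WT KCl and 17 in WT basal.

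**Figure D1:**
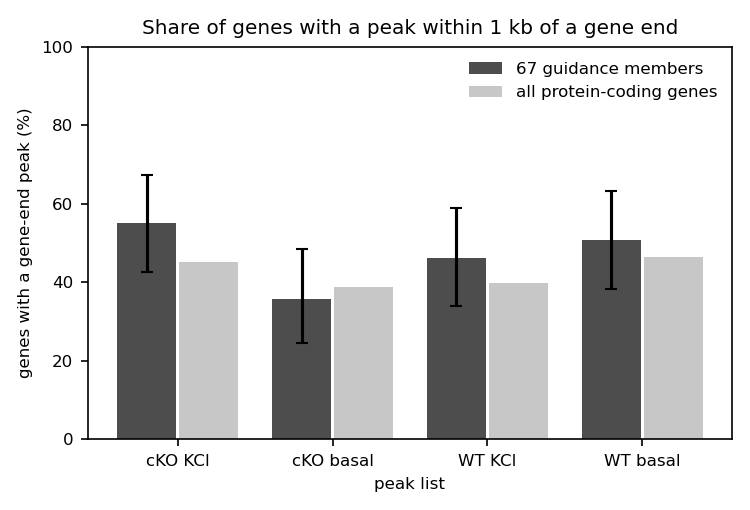
Share of genes (%) with a peak within 1 kb of a gene end in each of the 4 peak lists, for the 67 guidance genes (with exact 95% intervals for counting error) and for all 21887 protein-coding genes. The cKO basal list had the lowest share of members, 35.8%, and every interval held the share of all genes.

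Across the lists, 18 members (26.9%) had a gene-end peak in all 4, beside 29.0% of all genes, 23 (34.3%) had none, beside 43.1%, and 26 (38.8%) had one in some lists only, beside 27.9%. The most frequent partial pattern was presence in every list except cKO basal, held by 6 members (8.96%, interval 3.36 to 18.5%), beside 3.68% of all genes. These 6 were Epha4, Ephb2, Efna5, Efnb1, Sema3d and Plxna4. Absence from WT KCl alone was seen for Sema3c, Sema5b and Plxnc1 (4.48%, beside 3.18%). Absence from cKO KCl alone was seen for Ephb4 (1.49%, beside 1.07%), and absence from WT basal alone for Sema6d (1.49%, beside 1.06%). No member had a gene-end peak in both basal lists only (0 of 67, interval 0 to 5.36%, beside 1.27%), in cKO basal only (0 of 67, beside 1.67%), or in cKO basal and WT KCl only (0 of 67, beside 0.580%).

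**Figure D2:**
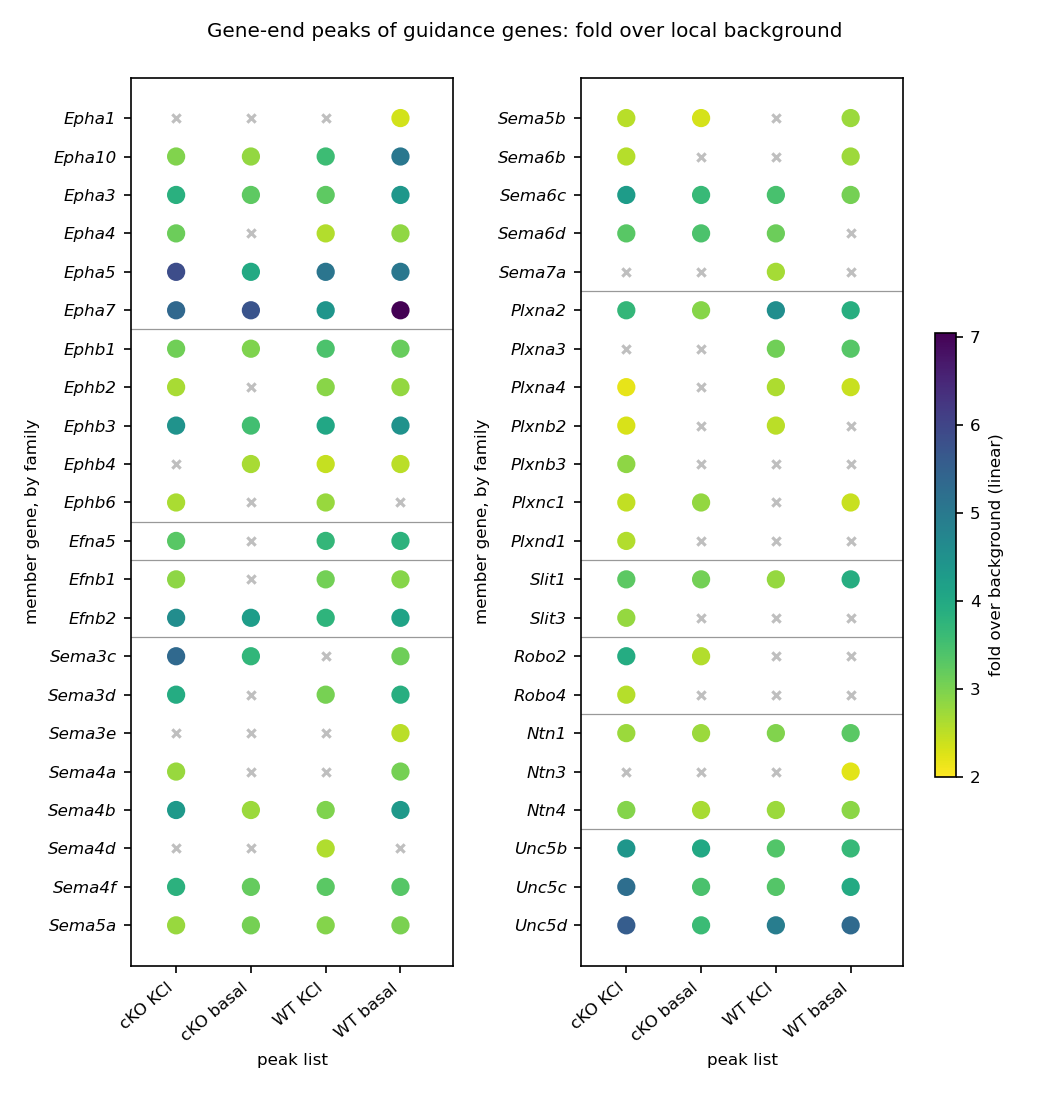
Fold over the local background at the strongest gene-end peak of the 44 members with such a peak in at least 1 list (rows, by family) in each peak list (columns); colour gives the fold on a linear scale and a grey cross means that no gene-end peak was called. Epha7, Epha5 and Unc5d have points in all 4 lists, and Sema3d and Efna5 have a cross in cKO basal alone.

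Of the 9 EphA receptors, 4 had a gene-end peak in all 4 lists, 3 in none and 2 in some, patterns of 29.0%, 43.1% and 27.9% of all genes. By list, 5 carried a gene-end peak in cKO KCl (55.6%, beside 45.2% of all genes) and 4 in cKO basal (44.4%, beside 38.8%). In WT KCl 5 did (55.6%, beside 39.8%) and in WT basal 6 (66.7%, beside 46.5%). Folds over local background are the authors' values per peak. They served to place a peak within its own list and to choose which members and sites are named. Epha7, which binds ephrin-A5, came first when members called in all 4 lists were ordered by the lowest of their 4 folds. It had 5.36 in cKO KCl, 5.73 in cKO basal, 4.41 in WT KCl and 7.05 in WT basal. Those peaks stood at the 94.7, 98.6, 92.0 and 99.3 percentiles of the lists in that order. Epha5 and Unc5d had higher folds than Epha7 in both KCl lists. Epha5 had 5.87 in cKO KCl, 4.01 in cKO basal, 5.09 in WT KCl and 5.05 in WT basal, and shares this end with Gm42163, so the peak cannot be assigned to either gene. Epha3 had 3.85 in cKO KCl, 3.25 in cKO basal, 3.25 in WT KCl and 4.37 in WT basal. In every list, the Epha7 start thus ranked among the strongest peaks. Epha10, a member without kinase activity, was also present in all 4 lists, at an end that it shares with Maneal. Epha4, known for keeping corticospinal axons from recrossing the midline, had 3.14 in cKO KCl, no peak in cKO basal, 2.59 in WT KCl and 2.83 in WT basal, and the nearest cKO basal peak lay 12.3 kb from a gene end. Epha1 had a peak, of fold 2.35, in WT basal only, and at its far end rather than its start. Epha2, Epha6 and Epha8 had no gene-end peak in any list.

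Of 5 EphB receptors, 4 carried a gene-end peak in cKO KCl, 3 in cKO basal, all 5 in WT KCl and 4 in WT basal. The shares of all genes were 45.2% in cKO KCl, 38.8% in cKO basal, 39.8% in WT KCl and 46.5% in WT basal. The family is small and the difference was not tested. Ephb3 was present throughout, with 4.45 in cKO KCl, 3.53 in cKO basal, 4.05 in WT KCl and 4.47 in WT basal, and so was Ephb1, which sends retinal axons to the same side at the optic chiasm, with 3.09, 2.98, 3.43 and 3.18 in that order of lists. Ephb2, an organiser of excitatory synapses, was called in every list except cKO basal. Its start carried a peak in cKO KCl (2.66) and WT basal (2.81), while the WT KCl peak (2.89) lay at the far end, so the calls do not rest on 1 site. Ephb4, a receptor of venous endothelium, was the only member absent from cKO KCl alone, with 2.66 in cKO basal, 2.44 in WT KCl and 2.53 in WT basal. Ephb6, whose kinase domain is inactive, had peaks in both KCl lists only (with Plxnb2, beside 1.30% of all genes), of 2.65 in cKO KCl and 2.78 in WT KCl. In both basal lists a peak lay just past the limit, at 1.47 kb in cKO basal and 1.28 kb in WT basal, and the start window of Ephb6 inside the gene overlapped a peak in cKO KCl, cKO basal and WT basal.

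Among the ephrins, which signal to the Eph receptors, Efnb2 was the only member with a gene-end peak in all 4 lists, a pattern of 29.0% of all genes. The fold at Efnb2 was 4.60 in cKO KCl, 4.26 in cKO basal, 3.76 in WT KCl and 4.12 in WT basal. Efna5 had 3.31 in cKO KCl, none in cKO basal, 3.71 in WT KCl and 3.80 in WT basal. In cKO basal a peak of fold 2.94 lay 1058 bp from the end of Efna5, just outside the limit of 1000 bp. Efnb1, on chromosome X, had 2.85 in cKO KCl, none in cKO basal, 3.07 in WT KCl and 2.91 in WT basal, and the nearest cKO basal peak was 43.0 kb away. Efna1, Efna2, Efna3, Efna4 and Efnb3 had no gene-end peak in any list, so both ephrin classes were represented at their ends by 3 of 8 genes. Over all genes, 56.9% had a gene-end peak in at least 1 list.

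Of 20 semaphorins, 13 had a gene-end peak in at least 1 list and 4 in all 4. Counts were 10 in cKO KCl, 7 in cKO basal, 8 in WT KCl and 10 in WT basal. Those called in all 4 lists were Sema4b, Sema4f, Sema5a and Sema6c, but not always by peaks at the same position. The Sema4b peak of WT KCl overlapped none of those in the other lists. The Sema5a peak of cKO KCl overlapped that of WT basal only. Sema6c, a transmembrane semaphorin, had 4.27 in cKO KCl, 3.65 in cKO basal, 3.46 in WT KCl and 3.05 in WT basal, and Sema4f had 3.83, 3.19, 3.30 and 3.33 in that order. Of the secreted semaphorins, which bind neuropilins and plexins, Sema3c had 5.34 in cKO KCl, 3.72 in cKO basal, none in WT KCl and 3.11 in WT basal. The nearest WT KCl peak lay 571 kb from an end of Sema3c, and no other region within 50 kb of this gene was called in any list. Sema3d had 3.95 in cKO KCl, none in cKO basal, 3.03 in WT KCl and 3.89 in WT basal, with the nearest cKO basal peak 245 kb away. Sema3e, the ligand of Plxnd1, was marked in WT basal only (2.53), as were Epha1 and Ntn3, a pattern of 4.07% of all genes. Sema3a, the best known repellent of the family, and Sema3b, Sema3f and Sema3g had no gene-end peak.

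Membrane-bound semaphorins gave the other partial patterns. Sema6d had 3.31 in cKO KCl, 3.44 in cKO basal, 3.14 in WT KCl and no peak in WT basal, but the WT KCl peak lay beside rather than over those of the cKO lists. Sema5b, a repellent with thrombospondin repeats, had 2.54 in cKO KCl, 2.32 in cKO basal, none in WT KCl and 2.76 in WT basal, all weak peaks below the median of their lists. Sema4a and Sema6b were called in cKO KCl (2.78 and 2.56) and WT basal (3.05 and 2.74) only, a pattern of 2.92% of all genes. The Sema4a peaks lay at the far end, and in cKO basal one lay 1020 bp from that end. The Sema6b peak lay at the start in cKO KCl and at the far end in WT basal. Sema4d, a ligand of Plxnb1, and Sema7a, anchored by a lipid tail, were called in WT KCl only, with folds of 2.61 and 2.68, a pattern of 1.78% of all genes. Sema4c, Sema4g and Sema6a had no gene-end peak.

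Of the 9 plexins, the semaphorin receptors, Plxna2 alone had a gene-end peak in all 4 lists, a pattern of 29.0% of all genes. Counts were 6 in cKO KCl (66.7%, beside 45.2% of all genes) and 2 in cKO basal (22.2%, beside 38.8%). They were 4 in WT KCl (44.4%, beside 39.8%) and 4 in WT basal (44.4%, beside 46.5%). These differences were not tested. Plxna2 had 3.71 in cKO KCl, 2.91 in cKO basal, 4.58 in WT KCl and 3.88 in WT basal. Plxna4, a receptor of the Sema3a pathway, had low folds of 2.18 in cKO KCl, 2.62 in WT KCl and 2.42 in WT basal, and none in cKO basal. Plxna3, on chromosome X, had no gene-end peak in cKO KCl or cKO basal, against 3.09 in WT KCl and 3.34 in WT basal, and the nearest peaks were 15.2 kb away in cKO KCl and 14.8 kb in cKO basal. Plxna3 was the only member with the pattern of both WT lists, which 1.27% of all genes had. Chromosome X held 2.88% of the peaks in cKO KCl, 2.72% in cKO basal, 1.87% in WT KCl and 2.14% in WT basal, so its share was higher in both cKO lists, and the part of this in the calls at Plxna3 was not tested. Plxnb2, a receptor of Sema4c, was called in both KCl lists only (2.31 in cKO KCl and 2.53 in WT KCl) and just missed the limit in WT basal. Plxnb3, also on chromosome X, and Plxnd1 were called in cKO KCl only, at 2.86 and 2.58, a pattern that they share with Slit3 and Robo4 and that 3.07% of all genes had. Plxnc1, the Sema7a receptor, had 2.47 in cKO KCl, 2.82 in cKO basal, none in WT KCl and 2.42 in WT basal. Plxna1 and Plxnb1 had none.

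Of 7 Slit and Robo genes, Slit1 alone had a gene-end peak in all 4 lists, a pattern of 29.0% of all genes. Slit1 had 3.28 in cKO KCl, 3.08 in cKO basal, 2.80 in WT KCl and 3.90 in WT basal. Slit3 had one in cKO KCl only (2.80) and Slit2 had none. Robo2 was the only member called in both cKO lists and in neither WT list, a pattern of 0.941% of all genes. Its outermost start had a fold of 3.95 in cKO KCl and 2.58 in cKO basal, and in both WT lists the nearest peak to a gene end lay 145 kb away. The cKO basal peak rested on 26 fragments and stood at the 22.3 percentile of its list, so the call there was near the threshold. Robo4, the Robo of blood vessels, had a peak in cKO KCl only (2.57). Robo1 and Robo3 had none.

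Each of the 5 netrin receptors had a gene-end peak in all 4 lists or in none, patterns of 29.0% and 43.1% of all genes. Unc5b, Unc5c and Unc5d had gene-end peaks in all 4 lists. Unc5a, like them a receptor of repulsion, and Dcc, the attractive receptor, had none in any. A start window of Unc5a inside the gene overlapped a peak in both WT lists only, but a merged region that reaches into it also held a cKO basal peak (2.18). Unc5d had 5.59 in cKO KCl, 3.60 in cKO basal, 4.92 in WT KCl and 5.33 in WT basal. Unc5c had 5.25, 3.45, 3.36 and 3.99 in that order, and Unc5b had 4.40, 4.03, 3.37 and 3.67. The strongest gene-end peak of each of these 3 genes stood above the median fold of its list in every list. Ntn1 and Ntn4, secreted netrins, were called in all 4 lists, but by peaks at different positions. The Ntn1 peak of cKO KCl and WT KCl lay farther into the gene than those of cKO basal and WT basal, and the peaks at Ntn4 did not all overlap. Ntn3 was called in WT basal only, at 2.23, and Ntn5 in no list.

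Peaks at the annotated start were most often close to it. Strand was given for 57 members, and 32 of them had a peak at the start in cKO KCl, 21 in cKO basal, 26 in WT KCl and 27 in WT basal. The median summit lay 216 bp into the gene in cKO KCl, 69 bp in cKO basal, 49 bp in WT KCl and 74 bp in WT basal. Within 250 bp of the start lay 19 of 36 summits in cKO KCl, 16 of 22 in cKO basal, 17 of 28 in WT KCl and 20 of 32 in WT basal. The difference in medians was not tested. At the 1000-bp limit itself, the outermost peaks inside were those of Slit1 in WT KCl (992 bp, fold 2.80) and Ephb2 in cKO KCl (976 bp, 2.37), and the nearest outside were those of Plxnb2 in WT basal (1013 bp, 2.77) and Sema4a in cKO basal (1020 bp, 2.92).

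**Figure D3:**
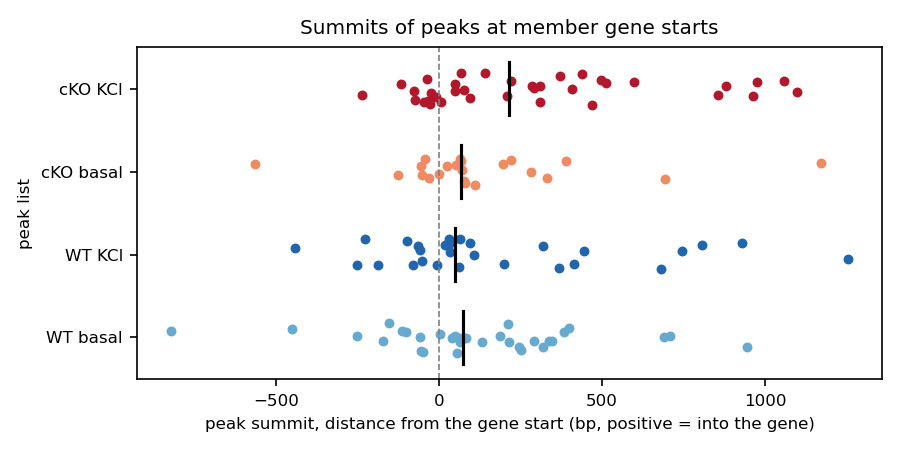
Distance (bp, positive into the gene) of each peak summit from the annotated start of the members with a known strand, by peak list. Most summits lie near 0, with medians of 216 bp in cKO KCl, 69 bp in cKO basal, 49 bp in WT KCl and 74 bp in WT basal.

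Without KCl, cKO neurons had fewer guidance genes with a gene-end peak than WT neurons, and this comparison asked how loss of Brg1 bears on resting neurons. Of 67 members, 2 had a peak in cKO basal only (2.99%, beside 4.25%) and 12 in WT basal only (17.9%, interval 9.61 to 29.2%, beside 12% of all genes). Those in cKO basal only were Sema6d and Robo2. WT basal alone had Sema3d, Efna5, Plxna3, Sema4a, Efnb1, Epha4, Ephb2, Sema6b, Sema3e, Plxna4, Epha1 and Ntn3, 7 ligands and 5 receptors. Calls missing in cKO basal were most frequent among weaker WT basal peaks, though Sema3d (3.89), Efna5 (3.80) and Plxna3 (3.34) were in the middle tier. Among WT basal gene-end peaks in the low tier by fold (below 3.08), 9 of 15 members lacked one in cKO basal (60.0%, beside 52.3% of all genes). In the middle tier (3.08 to 4.08) 3 of 11 did (27.3%, beside 21.7%), and in the high tier 0 of 8 (0%, beside 2.79%). With all lists cut to the same length of 20229 peaks, the counts were 3 in cKO basal only and 8 in WT basal only.

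After KCl, the direction of the counts between the genotypes was the opposite. In cKO KCl only, 10 members had a gene-end peak (14.9%, interval 7.40 to 25.7%, beside 10.1% of all genes), and in WT KCl only 4 had one (5.97%, beside 4.70%). Those in cKO KCl only were Sema3c, Robo2, Plxnb3, Slit3, Sema4a, Plxnd1, Robo4, Sema6b, Sema5b and Plxnc1. Those in WT KCl only were Plxna3, Sema7a, Sema4d and Ephb4. Robo2 was thus called in the cKO list and Plxna3 in the WT list in both states of activity. The lists differed in length in the same direction as these counts, 25690 peaks in cKO KCl and 20229 in WT KCl. Cut to equal length they gave 8 members in cKO KCl only and 6 in WT KCl only.

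In WT neurons, 5 members carried a gene-end peak in WT KCl only (7.46%, beside 4.72% of all genes) and 8 in WT basal only (11.9%, beside 11.5%). KCl-only calls were Sema6d, Ephb6, Sema7a, Sema4d and Plxnb2, and basal-only calls Sema3c, Sema4a, Sema5b, Sema6b, Sema3e, Plxnc1, Epha1 and Ntn3. Semaphorins made up 8 of these 13 members, beside 20 of all 67 members and 13 of the 44 with a gene-end peak in any list. The difference in share was not tested. Equal list lengths gave 6 in WT KCl only and 4 in WT basal only, so the order of the 2 counts turned round once the lists were of equal length.

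In cKO neurons, 14 members carried a gene-end peak in cKO KCl only (20.9%, interval 11.9 to 32.6%, beside 11.0% of all genes), and Ephb4 was the only member with one in cKO basal only (1.49%, beside 4.59%). The 14 were Sema3d, Efna5, Epha4, Plxnb3, Efnb1, Slit3, Sema4a, Ephb2, Ephb6, Plxnd1, Robo4, Sema6b, Plxnb2 and Plxna4. The 6 genes absent from cKO basal alone are among them by definition. At equal list lengths the counts were 12 in cKO KCl only and 3 in cKO basal only. By role, the 14 held 6 ligands and 8 receptors. With the call set on any annotated start window in place of gene ends, an alternative added after the data were seen, 9 members were in cKO KCl only and 3 in cKO basal only.

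Around the genes, the 67 members had 549 distinct regions within 50 kb, of 62023 in all, when overlapping peaks of the lists were merged. Regions with a peak numbered 247 in cKO KCl, 182 in cKO basal, 188 in WT KCl and 299 in WT basal. The ratio of cKO basal to WT basal was 0.609 for members and 0.596 for all regions, and that of cKO KCl to WT KCl was 1.31 and 1.28. The ratio of WT KCl to WT basal was 0.629 for members and 0.589 for all regions, and that of cKO KCl to cKO basal was 1.36 and 1.26. Member regions thus followed the lengths of the lists. By position, intragenic regions were 55.7% of member regions and 41.5% of all, intergenic 17.9% and 35.7%, and gene-end regions 26.4% and 22.8%, a difference that the rule builds in, since member regions were taken in or near gene bodies. In all, 289 member regions overlapped a member's own body. At least 1 region within 50 kb was present at 66 members in cKO KCl (98.5%, beside 79.4% of all genes), 60 in cKO basal (89.6%, beside 76.6%), 62 in WT KCl (92.5%, beside 75.9%) and 65 in WT basal (97.0%, beside 82.9%), and at every member in at least 1 list (67 of 67, beside 87.1%). The members' windows differ in length from those of all genes.

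Counted gene by gene, members had fewer regions in cKO basal than in WT basal at 52 genes (77.6%, beside 57.3% of all genes). They had more at 1 (1.49%, beside 11.4%) and as many at 14 (20.9%, beside 31.3%). Members had longer windows, with a median of 144 kb against 117 kb for all genes. The part of window length in these shares, here and in the comparisons below, was not tested. The largest differences were at Slit3, with 5 regions in cKO basal and 11 in WT basal, Efnb2 and Plxnc1, each with 3 and 8, and Ntn1, with 6 and 10. Sema4b had 7 in cKO basal and 11 in WT basal, Sema4c had 4 and 8, and Sema6a, a transmembrane ligand of plexins, had 2 and 6. Sema5a, Sema6c and Unc5d each had 1 in cKO basal and 5 in WT basal. Plxna1 was the exception, with 3 regions in cKO basal and 0 in WT basal, all intergenic, of folds 2.38 to 2.78 and absent from the other 3 lists. At equal list lengths the counts were 28 members with fewer and 20 with more in cKO basal. What set the length of the lists was not tested.

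After KCl, 38 members had more regions in cKO KCl than in WT KCl (56.7%, beside 42.0% of all genes). Another 15 had fewer (22.4%, beside 20.2%) and 14 as many (20.9%, beside 37.7%). Sema5b had 8 in cKO KCl and 1 in WT KCl, Ntn4 had 7 and 2, Robo4 had 6 and 1, and Ephb1 had 7 and 3. Robo3, a receptor of commissural axons, and Sema3f each had 5 in cKO KCl and 1 in WT KCl. Sema6a had 7 and 3, Epha1 had 5 and 2, and Ephb2 and Plxna4 had 8 and 5 each. The neighbouring genes Robo4 and Robo3 share 6 regions, so their counts are not independent. At equal list lengths 26 members had more and 20 fewer in cKO KCl.

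Between WT KCl and WT basal, 50 members had fewer regions in WT KCl (74.6%, beside 57.2% of all genes). Another 5 had more (7.46%, beside 11.3%) and 12 as many (17.9%, beside 31.6%). Slit3 had 3 in WT KCl and 11 in WT basal, Ntn1 had 3 and 10, Efna2 and Ephb1 had 3 and 8 each, and Efnb2 and Plxnc1 had 4 and 8 each. Ephb2 and Plxna4 had 5 in WT KCl and 9 in WT basal, Sema5b had 1 and 5, and Epha2 had 2 and 5. At equal list lengths 24 members had fewer and 25 more in WT KCl, and the direction was lost.

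Between cKO KCl and cKO basal, 42 members had more regions in cKO KCl (62.7%, beside 42.2% of all genes). Another 11 had fewer (16.4%, beside 20.1%) and 14 as many (20.9%, beside 37.7%). Ntn4 had 7 in cKO KCl and 2 in cKO basal, Robo1 and Robo4 had 6 and 1 each, Robo3 had 5 and 1, and Sema6a had 7 and 2. Plxna2 and Sema5b had 8 in cKO KCl and 4 in cKO basal, and Epha5 had 4 and 1. All 4 Robo genes had more in cKO KCl, Robo2 with 4 against 2. Ntn1, with 2 in cKO KCl and 6 in cKO basal, and Efna2, with 2 and 5, went the other way. At equal list lengths 30 members had more and 19 fewer in cKO KCl.

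**Figure D4:**
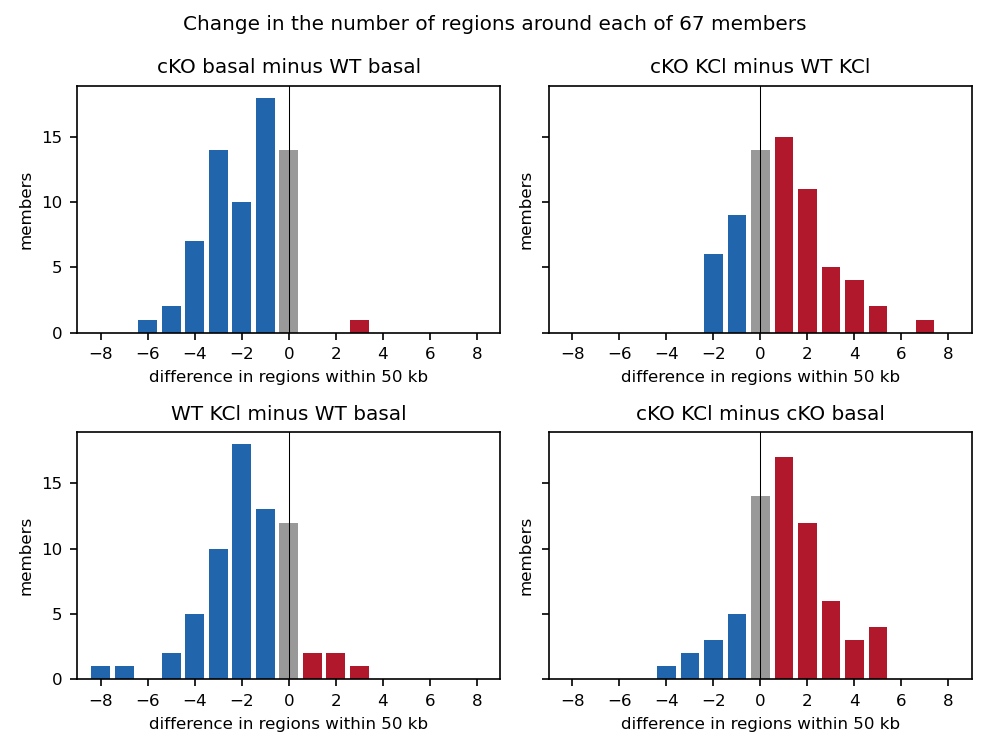
Number of members (vertical axis) by the difference in regions within 50 kb (horizontal axis) for the 4 comparisons of lists. Most members lie below 0 for cKO basal minus WT basal (52 of 67) and for WT KCl minus WT basal (50 of 67), and above 0 for cKO KCl minus WT KCl (38) and cKO KCl minus cKO basal (42), in the direction of the list lengths.

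The exchange of peaks between lists was as large around members as elsewhere. Of 304 WT basal peaks within 50 kb of members, 209 (68.8%, interval 63.2 to 73.9%) overlapped none in cKO basal, beside 68.7% over the whole WT basal list. Of 185 from cKO basal, 88 (47.6%) overlapped none in WT basal, beside 47.6%. Of 190 WT KCl peaks, 89 (46.8%) had none in cKO KCl, beside 49.5%, and of 247 cKO KCl peaks 147 (59.5%) had none in WT KCl, beside 60.6%. Within WT, 198 of 304 basal peaks (65.1%, interval 59.5 to 70.5%) had none in WT KCl, beside 69.2%. Within cKO, 83 of 185 basal peaks (44.9%, interval 37.6 to 52.3%) had none in cKO KCl, beside 49.7%. Each of these shares of all peaks lay within the members' interval. At equal list lengths the WT basal shares without a match were 55.3% in cKO basal and 52.1% in WT KCl.

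By list pattern, 66 member regions were called in all 4 lists (12%, beside 11.6% of all regions). A further 22 were called in every list except cKO basal (4.01%, beside 2.24%), 14 in both cKO lists only (2.55%, beside 1.30%), 12 in both KCl lists only (2.19%, beside 1.35%), 11 in both WT lists only (2.00%, beside 1.86%) and 5 in both basal lists only (0.911%, beside 1.96%).

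Sites away from gene ends named single elements within the genes. Exon and intron classes were not analysed here. In the body of Epha4, a region at chr1:77496703-77497199, centred 18.2 kb into the gene, had a fold of 5.45 in cKO KCl, 3.44 in cKO basal and 3.89 in WT basal and no peak in WT KCl. Away from gene ends, this was the strongest cKO KCl peak near a member with no match in WT KCl. In Plxnc1, chr10:94905724-94906019 had 4.97 in cKO KCl and 3.42 in WT basal and was not called in cKO basal or WT KCl. Beyond Robo4 and Robo3, in intergenic sequence, chr9:37454065-37454578 had 4.66 in cKO KCl and 3.41 in WT basal, with the same pattern. Away from gene ends, the 3 strongest sites in WT KCl but not in cKO KCl were called in WT KCl alone, with 3.90 in Ephb1 (chr9:101945391-101945615), 3.48 in Plxna4 (chr6:32473916-32474115) and 3.48 at 44.8 kb from Ntn5 (chr7:45739399-45739610).

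Some sites were missing in cKO basal and present in the other lists. In Plxna2, chr1:194746871-194747178 had 3.89 in cKO KCl, 3.88 in WT KCl and 4.27 in WT basal. In Sema6a, chr18:47248660-47249502 had 2.57 in cKO KCl, 3.14 in WT KCl and 3.69 in WT basal. Both sites lay inside the gene and fell under the threshold in cKO basal alone. The gene-end calls of the 6 members above had the same pattern, though at Ephb2 no single site had it. In Slit3, chr11:35587161-35587590 had 3.55 in cKO KCl and 3.60 in WT basal only. Present in cKO basal and absent from WT basal were a site in Sema6d (chr2:124404394-124404687, 2.88 in cKO KCl and 3.15 in cKO basal), one 25.1 kb from Ephb1 (chr9:102379832-102380195, 3.15 in cKO basal only) and one in Plxna4 (chr6:32247681-32247966, 3.10 in cKO basal only). In Sema4a, chr3:88448001-88448241 was also called in cKO basal only, at 3.05. The Epha4 site was 1 of 18 member regions missing from WT KCl alone (3.28%, beside 2.40% of all regions). In Efna5, chr17:62862637-62862999 had 3.85 in cKO KCl, 3.15 in cKO basal and 4.18 in WT basal and no peak in WT KCl, and a site 47.5 kb from Plxnd1 (chr6:116042823-116043054) had 3.95, 4.39 and 3.98 in the same lists.

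Regions that followed 1 split of the lists were few. In both KCl lists only, Unc5d had chr8:28744197-28744689 (4.49 in cKO KCl and 2.71 in WT KCl), and Ephb2 had chr4:136716516-136717054 inside the gene (2.55 and 3.50) and chr4:136602065-136602400 at 45.1 kb (2.92 and 3.31). The others of highest fold lay 25.6 kb from Sema4a (chr3:88409950-88410347, 2.67 in cKO KCl and 3.77 in WT KCl) and 32.2 kb from Plxnb2 (chr15:89122788-89123312, 2.73 and 3.12), both at an end of another gene. In both basal lists only, Ntn1 held 2 of the 5 regions, chr11:68244378-68244839 (2.29 in cKO basal and 3.09 in WT basal) and chr11:68386667-68387028 at its end (2.75 and 2.62). The other 3 lay near Plxna2 (chr1:194835318-194835573, 2.67 in cKO basal and 2.91 in WT basal), Sema4f (chr6:82881509-82881858, 2.27 and 2.62) and Efna2 (chr10:80205730-80206036, 2.60 and 2.31).

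In both cKO lists only, besides the starts of Robo2 and Sema6d, Unc5c had chr3:141601299-141601641 (3.95 in cKO KCl and 2.77 in cKO basal), and Epha6 had chr16:60605830-60606556 (3.74 and 3.06), 4.72 kb into the gene. A site 45.0 kb from Ntn5 (chr7:45638725-45638973) had 3.25 and 2.91. In both WT lists only, besides the gene-end region of Plxna3, a site 26.3 kb from Sema6c (chr3:95133476-95134103) had 3.11 in WT KCl and 3.59 in WT basal. Efnb2 had chr8:8620503-8620889 inside the gene (3.25 in WT KCl and 2.87 in WT basal) and chr8:8710853-8711469 (3.25 and 2.32), 49.6 kb away and just inside the limit, and the next region outside it, 50.28 kb away, was called in WT basal alone. A site 47.5 kb from Sema4c (chr1:36608188-36608512) had 3.23 in WT KCl and 2.31 in WT basal.

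Long guidance genes had fewer regions per Mb than long genes as a whole. The 18 members of 200 kb and over had 5.21 regions per Mb of gene and flank in cKO KCl, 3.31 in cKO basal, 3.31 in WT KCl and 6.21 in WT basal. All 990 genes of that length had 8.33 in cKO KCl, 6.22 in cKO basal, 6.21 in WT KCl and 11.2 in WT basal. The 35 members under 50 kb had 30.7 per Mb in cKO KCl, 23.5 in cKO basal, 26.4 in WT KCl and 35.6 in WT basal, against 21.3, 17.4, 17.4 and 26.6 for all genes of that length. Genes within a class were not matched for length, and all genes include the members. These densities describe the lists and were not tested.

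Annotated starts within the genes gave a further view, since the gene-end rule sees only the outermost ends. The promoter table held 73 start windows for 57 members, and windows with a peak numbered 32 in cKO KCl (43.8%, beside 39.2% of all 21263 windows), 25 in cKO basal (34.2%, beside 32.6%), 28 in WT KCl (38.4%, beside 34.2%) and 30 in WT basal (41.1%, beside 39.0%). Of 17 members with a window and no gene-end peak, 5 had a peak in a start window: Epha6, Robo1, Sema4c, Slit2 and Unc5a. The Robo1 window overlapped a peak in cKO KCl, WT KCl and WT basal, and the merged region that reaches into it (chr16:72663004-72663885) held a peak in all 4 lists, with 4.38 in cKO KCl, 3.15 in cKO basal, 3.37 in WT KCl and 3.14 in WT basal. The Epha6 window overlapped a peak in cKO KCl, cKO basal and WT basal, within a merged region (chr16:60605064-60605593) that had 4.06 in cKO KCl, 2.96 in cKO basal, 3.36 in WT KCl and 2.72 in WT basal. Of these genes and Robo2, only Robo2 had a peak over an internal start window in every list, and its region there (chr16:74411543-74412020) had 3.31 in cKO KCl, 2.48 in cKO basal, 4.44 in WT KCl and 3.79 in WT basal. The split of Robo2 by genotype therefore concerned its outermost start alone, which has 9 CpGs in its window against 17 at the internal start. The Unc5a window overlapped a peak in both WT lists only and that of Slit2 in cKO basal only. A merged region that reaches into the Unc5a window (chr13:54949372-54949890) also held a cKO basal peak. It had 2.18 in cKO basal, 2.52 in WT KCl and 2.90 in WT basal. Counting either kind of call, 49 members had a peak at an end or a start window in at least 1 list and 18 had none. Among the 18, Dcc, Efnb3, Plxna1, Sema3b, Sema3f and Sema6a had no window in the promoter table, so only their gene ends were assessed.

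CpG content separated windows with and without peaks. Member windows with a peak in all 4 lists had a median of 24 CpGs (n = 15), those with a peak in 1 to 3 lists 24 (n = 25) and those with none 11 (n = 33). Over all windows the medians were 26, 20 and 4. A peak in any list lay over 9.09% of 11 member windows with 0 to 5 CpGs (5.19% of all windows in that range), 42.1% of 19 with 6 to 15 (40.5%), 68.4% of 19 with 16 to 25 (79.7%) and 75.0% of 24 with 26 to 60 (87.6%). Epha8, with 56 CpGs and no peak, and Sema4f, with 7 and a peak in every list, were exceptions at either end. Windows of 1 gene share sequence where they overlap, and these shares describe the table.

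**Figure D5:**
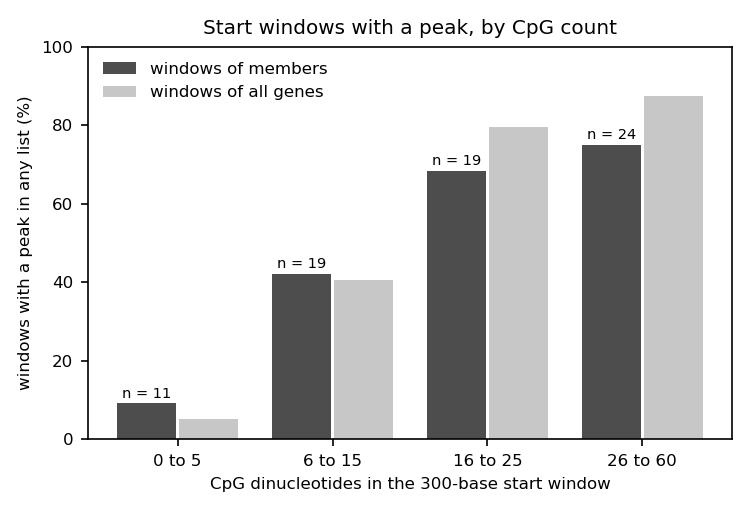
Share of start windows (%) with a peak in any list, by number of CpG dinucleotides in the window, for the 73 windows of members and for all windows with up to 60 CpGs. Both rise with CpG number, from 9.09 to 75.0% for members and from 5.19 to 87.6% for the windows of all genes.

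Among 12 motifs searched as letters on both strands, GGGCGG, the SP/KLF core, was in 51 of 73 member windows (69.9%, beside 46.2% of all windows of that length). Within member windows it was in 29 of 40 with a peak (72.5%) and 22 of 33 without (66.7%). TATAAA was in 2 (2.74%, beside 12.6%), those of Efnb2 and Slit2, CCGGAAG, the ETS core, in 2 (2.74%, beside 11.6%), and the NRF1 motif in 0 (0%, beside 6.38%). The motifs of factors tied to neuronal activity were rare in members and in all windows. TGACGTCA, the full CRE, was in 1 member window, of Epha2 (1.37%, beside 2.23%), TGANTCA, the AP-1 motif, in 3, of Sema4c, Sema4d and Sema6b (4.11%, beside 6.99%), and the MEF2 motif in 1, of Sema4d (1.37%, beside 3.47%). CCAAT was in 21 (28.8%, beside 38.2%), CAGCTG in 12 (16.4%, beside 15.6%), CAGATG in 5 (6.85%, beside 14.6%), AAGATGGC, for YY1, in 2 (2.74%, beside 3.05%), and the NFI motif in 0 (0%, beside 0.0329%). GGGCGG overlaps the CpG count, and a match is a description of letters only.

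Other genes of guidance pathways, such as neuropilins, cell adhesion molecules and growth cone effectors, had gene-end peaks in a larger share than the families in each list, a difference that was not tested. Of 72 such genes, 43 (59.7%) carried a gene-end peak in cKO KCl, 38 (52.8%) in cKO basal, 41 (56.9%) in WT KCl and 47 (65.3%) in WT basal, and 31 had one in all 4 lists. Nrp1, a co-receptor of secreted semaphorins, had no gene-end peak in cKO KCl and had 2.74 in cKO basal, 3.01 in WT KCl and 3.16 in WT basal. Nrp2 had 3.10 in cKO KCl, 2.61 in cKO basal, none in WT KCl and 2.64 in WT basal. Both neuropilins were therefore absent from 1 KCl list, and from a different one, patterns of 1.07% (Nrp1) and 3.18% (Nrp2) of all genes.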

How the data were processed

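Per the submitters' processing notes, Bowtie2 and MACS2 were used with GRCm38 (mm10). Their versions and settings, duplicate removal, the Tn5 shift and the joining of a condition's 2 libraries: not given in the sources used here. For each condition the authors deposited a single narrowPeak list of nucleosome-free peaks. Each peak has a deposited score, a fold (ratio) over local background, −log10 p and −log10 q, and a summit offset, all the authors' own. They were used within their list, except that folds also served to choose the members and sites named.

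The members, gene lists and marker lists were chosen with earlier results of these data known. The 5 mitochondrial peaks of each list were left out. Peaks overlapping by at least 1 bp were merged into regions. RefSeq tables (GRCm38.p6, the same build) gave gene bodies and, for 57 of the 67 members, starts, strand and sequences. Fragment pileup and local background were solved from the fold, with the pseudocount of 1, and −log10 p, within 0.001. Python 3.11.15, pandas 2.3.3, numpy 2.4.6, scipy 1.17.1 and matplotlib 3.10.9 were used, and the counting steps were tested on simulated data.

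Named were every member whose gene-end call differed in a comparison (up to 12 a direction, by fold). The 10 members of largest change in regions were added. So were 10 members with a gene-end peak in all 4 lists, those ranked highest by the lowest of their 4 folds. Sites named were the 3 strongest unmatched ones away from gene ends per direction, and the 5 strongest regions of each split of the lists. Sequences were printed for members of these sets and for family members without a peak. The labels do not say whether libraries came from separate cultures or animals. With 1 list per condition, counts stand beside those of all genes and no test was made. Alternatives were list length, −log10 q, gene-end distance, window, overlap, unmerged peaks, gene starts, start windows and subsets of members.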

Additional observations from a re-analysis of the deposited data

Results flagged for a closer look

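In the lists as deposited, the change with KCl ran in opposite directions in the 2 genotypes for both counts of member peaks. Members with a gene-end peak, KCl minus basal, differed by 13 in cKO and by -3 in WT. Regions within 50 kb of members, KCl minus basal, differed by 65 in cKO and by -111 in WT. With 1 list per condition, the difference between the genotypes was not tested, and these counts move with the lengths of the lists. With lists cut to equal length, members with a gene-end peak were 33 in cKO KCl and 24 in cKO basal, and 31 in WT KCl and 29 in WT basal, so the opposite direction of this count was lost.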

How the results depend on the processing

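Of 170 values under alternatives for 26 results, 146 stayed within 1.5 times the reported count, or within the interval of a share, and 24 moved. Presence is a threshold call on about 30 fragments, and depth limits all weak peaks. Lists cut to 20229 peaks moved the most. Members with fewer regions became 28 for cKO basal against WT basal, 24 for WT KCl against WT basal and 19 for cKO KCl against cKO basal, and those with more became 20 and 25 in the first pair of comparisons. Gene-end peaks became 4 in WT basal but not WT KCl and 3 in cKO basal but not cKO KCl, and unmatched WT basal peaks 55.3% in cKO basal and 52.1% in WT KCl.

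Gene ends within 500 bp gave 2 members in WT KCl but not WT basal, 2 in WT KCl but not cKO KCl and 2 in cKO basal but not cKO KCl. Gene ends within 2 kb gave 4 in cKO basal but not WT basal and 3 in cKO basal but not cKO KCl. Start windows, added after the data were seen, gave 3 in WT KCl but not WT basal, 5 in WT basal but not WT KCl, 9 in cKO KCl but not cKO basal and 3 in cKO basal but not cKO KCl. Members with more regions in cKO basal than in WT basal became 2 at −log10 q of at least 2, 5 in a window of 10 kb and 5 in one of 100 kb, and those with more in WT KCl than in WT basal became 8 in a window of 10 kb. Regions in both KCl lists only became 7 within 10 kb and 20 within 100 kb. The cause of these moves was not tested. Leaving out chromosome X, or all but 1 member of each group that shares regions, both also added after the data were seen, moved none of the 20 values each.

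No paired analysis was possible because each condition has 1 list, in which the 2 libraries are pooled. Leaving out a replicate was not possible for the same reason.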

Other observations

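Among genes of guidance pathways outside the ligand and receptor families, Neo1, a receptor related to Dcc, had a fold of 5.18 in cKO KCl, 3.06 in cKO basal, 3.47 in WT KCl and 5.23 in WT basal, whereas Dcc had no gene-end peak in any list. Of the 72 such genes, 55 had a gene-end peak in at least 1 list, beside 12459 of all 21887 genes (56.9%).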
